A study of Homo sapiens with 6 samples.

Results

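The genes described here are 36 genes of cholesterol and fatty acid synthesis and of its control. They were taken by symbol from a list chosen with earlier results of these data known. Each was read on Affymetrix Human Genome U133 Plus 2.0 arrays at its brightest probe set, by the mean of the 6 arrays, among probe sets annotated to exactly 1 symbol. Of the 36 genes, 32 were measured in this way, out of 19775 genes with such a probe set. FDFT1 and ACSL3 had no probe set of 1 symbol in the annotation used, and the 2 probe sets of CYP51A1 and the 3 of FADS1 list several symbols, so these 4 genes were not analysed here. The samples were residual MHCC97H cells, which are human hepatocellular carcinoma cells of an established line left alive after heating to 47 °C, a sublethal temperature. They were cultured with 100 ng/mL recombinant POSTN (3 arrays) or without it at 0 ng/mL (control, 3 arrays) for 24 h. POSTN is periostin, a matrix protein that cells secrete and that engages integrin receptors. All 6 samples were heated, so no array shows these genes in unheated cells, and the results hold for this 1 line only. The labels number the arrays of each condition 1, 2 and 3, without saying whether a number marks a separate culture or shared handling, so the p-values rest on the spread between these arrays, which may be technical.

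Cells make cholesterol from acetyl-CoA through mevalonate, isoprenyl phosphates, squalene and lanosterol. Fatty acids are built from the same acetyl-CoA, and are then desaturated and elongated. Both pathways are transcribed under the SREBP factors, membrane proteins that SCAP carries out of the endoplasmic reticulum when sterols are low and that INSIG proteins hold back when sterols are high. The liver is a main site of both pathways, and hepatoma lines often keep them active.

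SREBPs bind sterol regulatory elements, commonly next to CCAAT boxes, the sites of the factor NF-Y. The promoters were therefore searched on both strands, in the 250 bases before the start of transcription, for TCACNCCAC (on the other strand GTGGNGTGA), 1 form of the sterol regulatory element, and for CCAAT, which reads ATTGG on the other strand. The promoter sequences are those of RefSeq on GRCh38.p14, and 29 of the 32 measured genes matched. The 4 windows below are shown because INSIG1 and SCD had the largest differences between arrays described further on, MSMO1 had the most CCAAT boxes of the windows shown, and SREBF2 held the only match to TCACNCCAC. Each window is the 240 bases just before the start, on the plus strand, 5′ to 3′, and capitals mark the motif matches.
INSIG1, chr7:155297638-155297877: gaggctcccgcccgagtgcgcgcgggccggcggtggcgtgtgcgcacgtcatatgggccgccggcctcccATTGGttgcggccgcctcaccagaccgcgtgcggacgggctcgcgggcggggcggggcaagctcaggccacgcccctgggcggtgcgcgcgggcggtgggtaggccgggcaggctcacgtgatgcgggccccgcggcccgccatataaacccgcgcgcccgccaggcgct
SCD, chr10:100346993-100347232: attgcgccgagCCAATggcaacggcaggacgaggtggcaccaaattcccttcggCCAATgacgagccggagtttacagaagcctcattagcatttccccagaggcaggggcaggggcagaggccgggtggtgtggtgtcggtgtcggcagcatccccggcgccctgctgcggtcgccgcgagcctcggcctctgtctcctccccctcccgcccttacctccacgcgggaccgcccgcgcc
MSMO1, chr4:165327429-165327668: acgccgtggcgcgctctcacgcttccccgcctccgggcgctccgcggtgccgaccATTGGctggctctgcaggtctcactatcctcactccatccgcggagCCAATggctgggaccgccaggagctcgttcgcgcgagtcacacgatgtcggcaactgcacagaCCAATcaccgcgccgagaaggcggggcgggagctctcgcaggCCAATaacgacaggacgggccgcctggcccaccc
SREBF2, chr22:41832865-41833104: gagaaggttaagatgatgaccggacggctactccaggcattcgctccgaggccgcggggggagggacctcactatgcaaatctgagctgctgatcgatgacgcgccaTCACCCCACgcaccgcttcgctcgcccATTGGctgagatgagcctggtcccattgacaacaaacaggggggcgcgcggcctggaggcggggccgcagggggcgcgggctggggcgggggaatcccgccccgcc

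INSIG1 held 1 CCAAT box, SCD 2 and MSMO1 4. In SREBF2, which encodes the SREBP that mainly drives sterol genes, TCACCCCAC was followed by a CCAAT box on the other strand, 106 to 102 bases before the start. A CCAAT box was found in 22 of the 29 genes (75.9%), compared with 41.8% of 9469 genes above background with a listed promoter and 32% of all 35116 promoters in the table. Genes with 2 or more boxes were 15 of 29 (51.7%), compared with 15.4% of the genes above background and 9.53% of all promoters. TCACNCCAC was present in 1 of 29 genes (3.45%), compared with 1.19% of the genes above background and 0.883% of all promoters. A gene was counted when any of its listed promoters held the motif, so genes with several promoters had more chances than a single promoter. A match describes the letters only, and other forms of the sterol element were not searched.

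Most of these genes were expressed well above background in the residual cells. The values are log2 MAS 5.0 signals, and a level of 5.98, the 95th percentile over 107 probe sets for olfactory receptors, taken as genes silent in liver cells, served as background. Of the 32 genes, 30 lay above it on the mean of the 6 arrays. MVD, the last mevalonate enzyme before isopentenyl diphosphate, had a mean of 5.92, just below background. Its log2 signals were 6.23, 4.57 and 6.31 with POSTN and 6.48, 6.03 and 5.87 in control cells. The control mean of 6.13 was above background and the POSTN mean of 5.70 below it. THRSP, a small protein linked to lipogenesis in liver, lay within the background range, with 4.71, 5.64 and 4.95 with POSTN and 5.41, 5.28 and 5.37 in control cells. Signals of different probe sets are not a common scale, so the genes were not ranked against one another.

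The study's comparison was POSTN-treated against control cells. In it, none of the cholesterol and fatty acid synthesis genes differed beyond the spread of the arrays. In limma, 0 of 54613 probe sets had an adjusted p under 0.05 (0%), with a lowest adjusted p of 1.0, while 1649 had an unadjusted p under 0.05. Of the 32 genes, 14 had a higher and 18 a lower mean with POSTN, and the median log2 difference was -0.016, close to the -0.0078 over all 11550 genes above background. An unadjusted p under 0.05 was reached by 0 of the 32, against 2.48% of all genes and 100 of the 11550 genes above background. By the methods' t-test, 0 of the 32 reached it as well. The study's thresholds, which pair that p with a more than doubled or halved signal, were met by 1398 probe sets in the limma fit. At the brightest probe set, in 0 of the 30 genes above background were the 3 POSTN arrays all on one side of the 3 control arrays. This pattern was seen in 4.98% of all genes above background.

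Among the mevalonate enzymes, HMGCS1, which makes HMG-CoA, had log2 signals of 9.72, 9.48 and 9.48 with POSTN and 9.56, 9.84 and 9.55 in control cells. The control value of replicate 2 was the highest of the 6, and the conditions overlapped (log2 difference -0.089, SE 0.13). MVK, mevalonate kinase, had 9.45, 9.57 and 9.40 with POSTN and 9.67, 9.36 and 9.21 in control cells (0.061, SE 0.14). The highest and the lowest value were both control arrays. PMVK, the next kinase of the pathway, had 10.19, 9.96 and 9.76 with POSTN and 10.26, 9.55 and 9.83 in control cells (0.086, SE 0.18). In both conditions replicate 1 was the highest. FDPS, farnesyl diphosphate synthase, had 13.33, 13.11 and 13.14 with POSTN and 13.41, 13.20 and 13.20 in control cells (-0.075, SE 0.095). Here too both arrays numbered 1 were the highest.

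The largest mean difference above background belonged to TM7SF2, a sterol reductase that acts after lanosterol, with log2 signals of 6.86, 6.91 and 7.36 with POSTN and 7.65, 6.52 and 6.01 in control cells. The control arrays alone spanned both extremes, so that the difference of 0.32 was smaller than its standard error of 0.41. INSIG1, an SREBP target whose product retains SCAP, had 11.55, 10.90 and 10.68 with POSTN and 11.55, 10.65 and 10.22 in control cells (0.23, SE 0.31). The conditions were equal at number 1, and POSTN was higher at numbers 2 and 3. Blocking on the replicate number gave this difference a raw p of 0.022 in limma, which adjustment raised to 0.97.

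Both genes of the SREBP factors had lower means with POSTN, without passing the test. SREBF1, whose product mainly drives fatty acid genes, had 8.36, 7.80 and 7.99 with POSTN and 8.69, 7.96 and 8.03 in control cells (-0.18, SE 0.24). SREBF2 had 7.70, 7.59 and 7.88 with POSTN and 7.71, 7.76 and 8.28 in control cells (-0.19, SE 0.22). The conditions overlapped in both, and control replicate 3 of SREBF2 was the highest of the 6 arrays. ACLY, which releases acetyl-CoA from citrate for both pathways, had 13.48, 13.66 and 13.51 with POSTN and 13.46, 13.63 and 13.42 in control cells (0.048, SE 0.089). ACACA, the acetyl-CoA carboxylase that commits carbon to fatty acids, had 10.76, 10.48 and 10.60 with POSTN and 10.89, 10.64 and 10.53 in control cells (-0.071, SE 0.12). In limma each of these genes had an adjusted p of 1.0.

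How large a difference the arrays could have missed is shown by the 95% intervals of the 30 genes above background. They all included 0, had a median half-width of 0.37 on the log2 scale and lay within -0.71 and 1.23. All but that of TM7SF2 lay within 1 log2 unit of 0, that is, within a change of 2-fold, and 22 of the 30 lay within 0.5. When the number was a block in the fit, the median half-width was 0.19, 27 of the 30 intervals lay within 0.5, and 29 included 0, INSIG1 being the exception at 0.04 to 0.43.

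**Figure D1:**
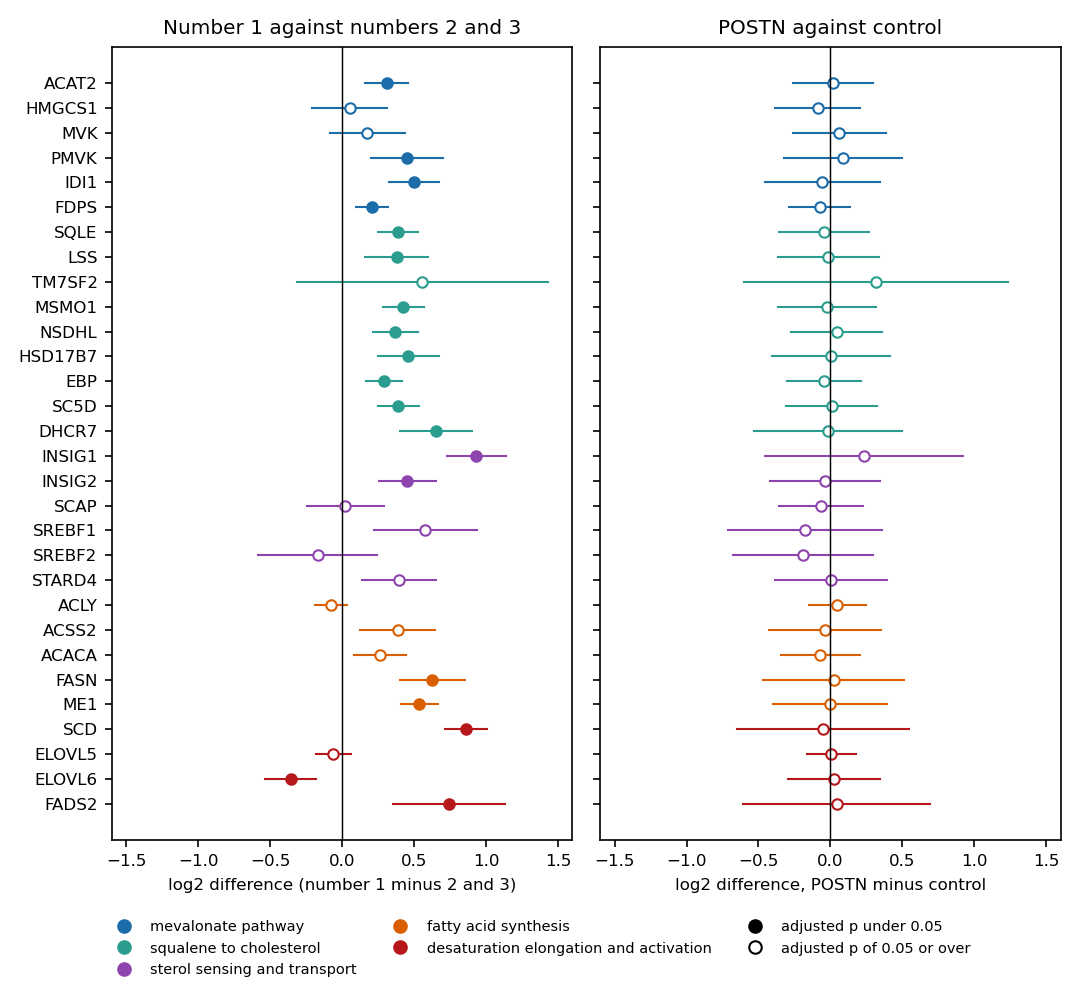
Log2 differences of the 30 genes above background with 95% intervals. The left panel gives the arrays numbered 1 minus those numbered 2 and 3 (condition in the fit), the right panel gives POSTN minus control, colours mark roles and filled points have an adjusted p under 0.05. On the right all intervals include 0, while on the left 18 genes are higher and ELOVL6 is lower.

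The same genes separated the arrays by replicate number. The POSTN and the control array numbered 1 both had higher signals of most cholesterol and fatty acid synthesis genes than the 4 arrays numbered 2 and 3. This contrast was chosen because number 1 was known from earlier results of these data to stand apart, so its p-values describe the size of the difference against the spread of the arrays and are no independent evidence that such a difference exists. Fitted with limma with the condition in the model, it gave 3389 of 54613 probe sets at an adjusted p under 0.05 (6.21%), of which 1755 were higher and 1634 lower at number 1. Of the 32 genes, 18 were higher and 1 was lower at that threshold. Among all 11550 genes above background, 8.64% were higher and 7.95% lower. The genes too were listed with earlier results known, so this comparison is descriptive. The median log2 difference of the 32 genes was 0.39, compared with 0.010 over all genes above background, and 27 of the 32 had a positive difference.

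Seen array by array, the median deviation of the 30 genes above background from their own mean was 0.22 on POSTN 1, -0.12 on POSTN 2 and -0.11 on POSTN 3. On the control arrays it was 0.30 on control 1, -0.13 on control 2 and -0.11 on control 3. On POSTN 1, 24 of the 30 genes were above their own mean, against 7 and 4 on POSTN 2 and 3, and on control 1 the number was 25, against 4 and 4 on control 2 and 3. For all genes above background the median deviation of each array lay between -0.0052 and 0.019. In 22 of the 30 genes both arrays numbered 1 were above the 4 others, a pattern that 23.2% of all genes above background showed.

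**Figure D2:**
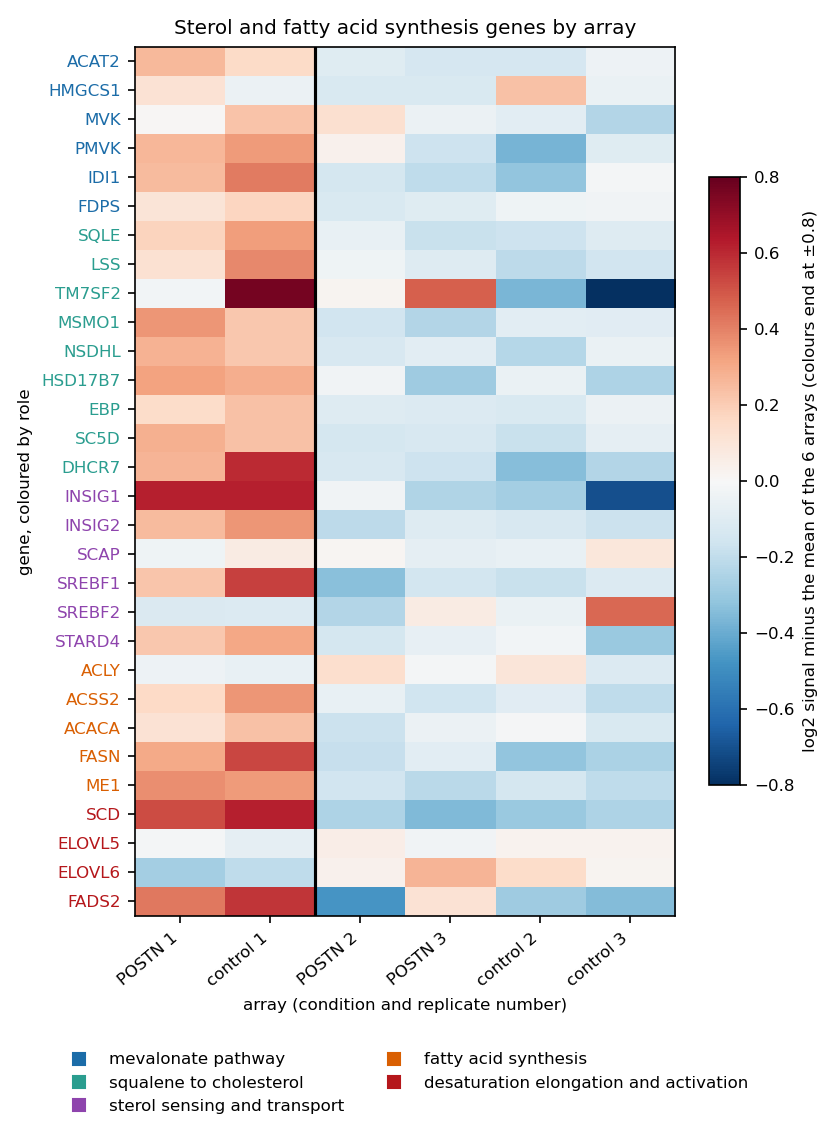
Deviation of the log2 signal of each gene above background from its mean over the 6 arrays, with genes in rows by role and arrays in columns, the 2 arrays numbered 1 at the left of the black line. The left columns are mostly red, with 24 genes above their mean on POSTN 1 and 25 on control 1, and the clearest blue cells there belong to ELOVL6.

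Of the 7 mevalonate pathway genes measured, 4 were higher at number 1 (ACAT2, PMVK, IDI1 and FDPS), and HMGCS1, MVK and the dim MVD did not pass. For this count and those by role below, the shares over all genes above background were 8.64% higher and 7.95% lower. IDI1, which isomerises isopentenyl diphosphate, had log2 signals of 12.32 on POSTN 1 and 12.48 on control 1, against 11.93 and 11.87 on POSTN 2 and 3 and 11.75 and 12.05 on control 2 and 3. Both arrays numbered 1 were above the 4 others, by 0.50 on average (SE 0.079, adjusted p = 0.0034). Its brightest probe sets are of a class that may cross-hybridise, and its only probe set outside that class, close to background at a mean of 6.35, differed by -0.084 (SE 0.37). PMVK, given above by condition, was higher by 0.45 (SE 0.11, adjusted p = 0.040). ACAT2, which condenses acetyl-CoA at the head of the pathway, was higher by 0.31 and FDPS by 0.21. HMGCS1 differed by 0.051 (SE 0.12), with 0.24 among the POSTN arrays and -0.13 among the control arrays.

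Between squalene and cholesterol, 8 of the 9 genes measured were higher at number 1, with log2 differences from 0.29 for EBP, the sterol isomerase, to 0.65 for DHCR7, the reductase of the last step. DHCR7 had log2 signals of 10.26 on POSTN 1 and 10.59 on control 1, against 9.86 and 9.82 on POSTN 2 and 3 and 9.65 and 9.75 on control 2 and 3. Both arrays numbered 1 stood above the rest (SE 0.11, adjusted p = 0.0061, 1.57-fold). MSMO1, the oxidase that removes the methyl groups at carbon 4, had 13.34 on POSTN 1 and 13.20 on control 1, against 12.83 and 12.76 on POSTN 2 and 3 and 12.91 and 12.90 on control 2 and 3 (0.43, SE 0.065, adjusted p = 0.0030). The 4 arrays numbered 2 and 3 were close to one another. HSD17B7, the keto reductase of the same demethylation, had 9.95 on POSTN 1 and 9.92 on control 1, against 9.60 and 9.35 on POSTN 2 and 3 and 9.58 and 9.39 on control 2 and 3 (0.46, SE 0.096, adjusted p = 0.016). Its single probe set is of the class that may cross-hybridise, so related sequences may share this signal.

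SC5D, the desaturase before the last step, had 11.80 on POSTN 1 and 11.75 on control 1, against 11.37 and 11.39 on POSTN 2 and 3 and 11.34 and 11.44 on control 2 and 3 (0.39, SE 0.065, adjusted p = 0.0048). No value of numbers 2 and 3 reached those of number 1. SQLE, the epoxidase that opens the sterol branch, was higher by 0.39, LSS, which closes the ring to lanosterol, by 0.38, and NSDHL, the decarboxylating dehydrogenase, by 0.37. TM7SF2 was the exception in this group (0.55, SE 0.40, adjusted p = 0.54 in limma), since its difference was -0.27 among the POSTN arrays and 1.38 among the control arrays.

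Of the 6 genes of sterol sensing and transport, INSIG1 and INSIG2 were higher at number 1. INSIG1 (chr7:155297878-155310235) had the largest difference of all genes listed, 0.93 on the log2 scale (SE 0.093, adjusted p = 1.7e-04, 1.91-fold), with 11.55 on both POSTN 1 and control 1, above all 4 others. INSIG2, its homologue, had 10.19 on POSTN 1 and 10.29 on control 1, against 9.73 and 9.84 on POSTN 2 and 3 and 9.81 and 9.77 on control 2 and 3 (0.45, SE 0.091, adjusted p = 0.013). SREBF1 differed by 0.58 (SE 0.16, adjusted p = 0.064) and STARD4, a soluble sterol carrier, by 0.39 (SE 0.12, adjusted p = 0.078), both with the 2 arrays numbered 1 on top but without passing the test. SREBF2 differed by -0.17 (SE 0.19) at its brightest probe set, and by 0.22 (SE 0.20) and -1.08 (SE 0.63) at its others. SCAP differed by 0.021 (SE 0.12).

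In fatty acid synthesis, FASN and ME1 were higher at number 1 among 6 genes measured. FASN, the synthase that builds palmitate, had 10.35 on POSTN 1 and 10.58 on control 1, against 9.86 and 9.96 on POSTN 2 and 3 and 9.73 and 9.79 on control 2 and 3 (0.63, SE 0.10, adjusted p = 0.0043, 1.54-fold). ME1, malic enzyme, which supplies NADPH, had 12.57 on POSTN 1 and 12.53 on control 1, against 12.04 and 11.98 on POSTN 2 and 3 and 12.06 and 11.99 on control 2 and 3. Both arrays numbered 1 were clear of the 4 others, and the difference was 0.53 (SE 0.058, adjusted p = 3.0e-04). ACSS2, which activates acetate, and ACACA differed by 0.38 and 0.26 with adjusted p-values of 0.095 and 0.096 in limma. ACLY differed by -0.078 at its brightest probe set (SE 0.052), but by 0.32 (SE 0.092) and 0.23 (SE 0.074) at its other probe sets, none of which passed.

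Among 4 genes of desaturation and elongation, 2 were higher and 1 was lower. SCD (chr10:100347233-100364826), the desaturase that turns stearate into oleate, had 12.36 on POSTN 1 and 12.47 on control 1, against 11.59 and 11.49 on POSTN 2 and 3 and 11.54 and 11.59 on control 2 and 3. The gap between the numbers was 0.86 (SE 0.065, adjusted p = 2.6e-05, 1.81-fold), and no array numbered 2 or 3 came near those numbered 1. FADS2, the desaturase of polyunsaturated fatty acids, had 8.71 on POSTN 1 and 8.86 on control 1, against 7.82 and 8.40 on POSTN 2 and 3 and 8.0 and 7.94 on control 2 and 3 (0.74, SE 0.18, adjusted p = 0.031). POSTN 3 lay between number 1 and the 3 lowest arrays.

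ELOVL6, which elongates palmitate, moved the other way, with 11.42 on POSTN 1 and 11.49 on control 1, against 11.73 and 11.96 on POSTN 2 and 3 and 11.84 and 11.71 on control 2 and 3. At the brightest probe sets, ELOVL6 was the only gene of the list with both arrays numbered 1 below the 4 others. It was lower by 0.36 on the log2 scale (SE 0.081, adjusted p = 0.024 in limma). ELOVL5, an elongase of polyunsaturated fatty acids, differed by -0.062 (SE 0.054) at its brightest probe set. At a dimmer one, with a mean of 7.93, both arrays numbered 1 were below the 4 others (-0.57, SE 0.17, adjusted p = 0.088 in limma). Its remaining probe sets differed by -0.13 (SE 0.30) and 0.14 (SE 0.37).

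The differences by number were alike in direction within each condition. In 27 of the 32 genes the difference had the same sign among the POSTN arrays and among the control arrays, as it had in 8328 of the 11550 genes above background. The median of the 32 was 0.32 among the POSTN arrays and 0.46 among the control arrays. The interaction of number 1 with condition, added after the data had been seen, passed an adjusted p under 0.05 for 0 probe sets in limma, with 2474 at an unadjusted p under 0.05. At the brightest probe sets, such an unadjusted p was found for 3 of the 32 genes, compared with 910 of all 19775 genes. The 3 were LSS, TM7SF2 and DHCR7, each with the larger difference among the control arrays. It was also found at a dimmer probe set of ACLY (0.11 among the POSTN arrays and 0.53 among the control arrays) and of SREBF2 (0.51 among the POSTN arrays and -2.68 among the control arrays). Between numbers 2 and 3, 0 probe sets had an adjusted p under 0.05 in limma and 3352 had an unadjusted p under 0.05. The numbers of calls rest on how the variance is modelled, since 0 probe sets passed with a prior variance that does not follow the signal (SCD adjusted p = 0.38, INSIG1 0.39), and on the arrays numbered 1, since 10 of the genes were higher without POSTN 1 and 8 without control 1.

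All probe sets of the same genes were also read, the brightest ones included. The 32 genes have 72 probe sets of 1 symbol, of which 59 were above background. Of these 59, 28 were higher and 2 lower at number 1 by adjusted p, and 49 had a positive difference. The 59 include the 30 brightest probe sets given above, of which 18 were higher, 1 was lower and 26 had a positive difference. Over all 54613 probe sets, dim ones included, 6.21% were called in either direction. Among all genes above background, read at the brightest probe set, 8.64% were higher and 7.95% lower. INSIG1 was higher on all 3 of its probe sets, by 0.93, 1.03 and 0.54. SQLE was higher on 3, by 0.39, 0.59 and 0.95, and differed by 0.48 (SE 0.36) on the dimmest. SCD was higher by 0.86 and 0.65 on its brightest probe sets and differed by 0.59 on both others, and both lower calls belonged to ELOVL6 (-0.36 and -1.03). Other probe sets of called genes did not pass. A further ELOVL6 probe set, at a mean of 10.34, differed by -0.14 (SE 0.090). That of NSDHL, at a mean of 10.89, differed by 0.22 (SE 0.10), and 1 of IDI1, at a mean of 7.89, by 0.054 (SE 0.18). With POSTN, 0 of the 59 passed, and the only probe set of the 72 at an unadjusted p under 0.05 was a dim one of SREBF1 with a mean of 4.17, within the background range. The conditions did not overlap at the SREBF2 probe set that differed by 0.22 between the numbers (POSTN minus control -0.35, SE 0.22). Nor did they at 1 of IDI1 close to background, at a mean of 6.35 (0.55, SE 0.33). The dimmest SREBF2 probe set differed by 0.076 (SE 0.69) with POSTN. Conditions without overlap were seen in 4.98% of all genes above background.

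**Figure D3:**
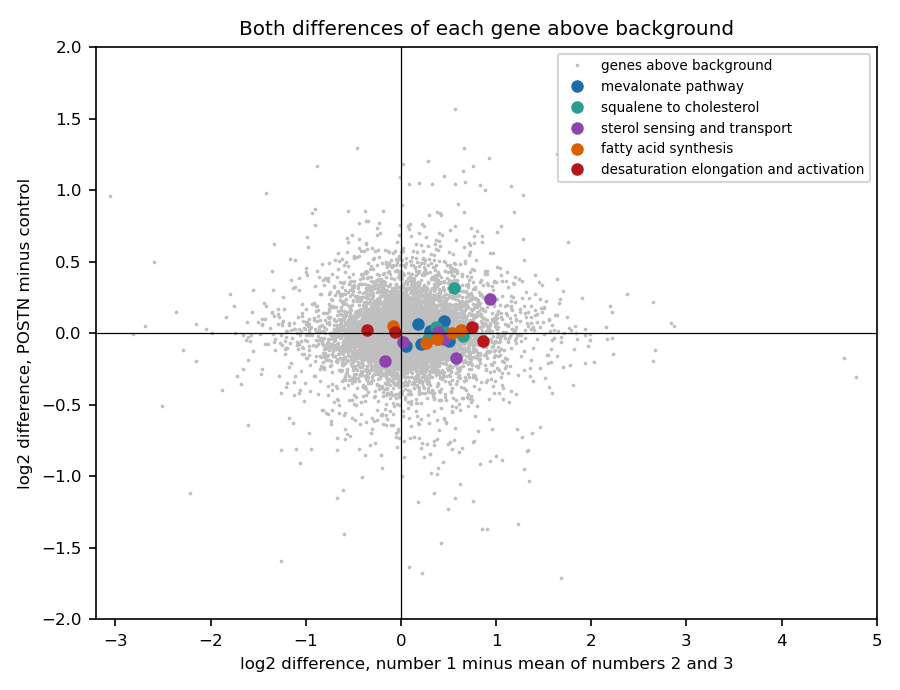
Both log2 differences of each of 11550 genes above background, with number 1 minus the mean of numbers 2 and 3 on the horizontal and POSTN minus control on the vertical axis. Coloured points are the 30 cholesterol and fatty acid synthesis genes, which lie within 0.32 of 0 on the vertical axis and reach 0.93 on the horizontal axis.

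Genes of neighbouring pathways were read from 3 further lists at the same threshold. Over all genes above background, 8.64% were higher and 7.95% lower at number 1, and the median was 0.010. Of 24 other lipid synthesis genes measured, 5 were higher at number 1 and 1 was lower, with a median of 0.14. They were TMEM97, a sterol-regulated membrane protein (0.58, adjusted p = 2.2e-04), LPIN1, a phosphatidate phosphatase (0.81), ELOVL7, an elongase (1.21), MBTPS1, the protease that first cleaves SREBPs (0.38), and HACD3, a dehydratase of elongation (0.24), while the lower one was HSD17B12, the ketoacyl reductase of elongation (-0.22). Of 6 measured LXR targets and efflux genes, NR1H3, which encodes LXR alpha, was higher by 0.79 and SMPDL3A by 0.40. ABCA1, the exporter of cholesterol to lipoproteins, was lower, with 8.54 on POSTN 1 and 7.99 on control 1, against 9.64 and 9.53 on POSTN 2 and 3 and 10.19 and 9.89 on control 2 and 3. This difference of -1.55 (SE 0.19, adjusted p = 6.0e-04) ran opposite to that of most sterol synthesis genes. Of 13 fatty acid oxidation genes, 4 were higher (ETFB by 0.83, HADH by 0.50, ETFA by 0.37 and CPT1A by 0.29), 0 were lower, and the median was 0.29. With POSTN, 0 genes of the 3 lists passed in limma, 1 had an unadjusted p under 0.05, and the list medians lay between -0.027 and 0.0036.

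Other features of the arrays moved with the number. For comparison, 8.64% of all genes above background were higher at number 1 and 7.95% lower. Of 9 hepatocyte and hepatoma markers measured, 8 were above background in at least 1 condition. At number 1, 4 were higher, namely SERPINA1 (2.92, above background with POSTN only), TF (transferrin, 2.83), FGB (fibrinogen beta, 2.65) and ALB (1.85). AFP (0.12), KRT8 (-0.035), KRT18 (-0.16) and TTR (-0.44) did not pass. In KRT18 both arrays numbered 1 were below the 4 others. APOA1 (1.80, SE 0.99), within the background range, did not pass either. The summed linear signal of that list, set mostly by the keratins, was 47905 to 51758 at number 1 and 50186 to 55009 at numbers 2 and 3. Of 7 fibroblast and stellate cell markers, DCN, at a mean of 9.26, was lower at number 1 (-1.0). COL3A1, above background with POSTN only, had the largest difference of the list (-2.43, SE 0.69, adjusted p = 0.067 in limma), with both arrays numbered 1 below the 4 others. COL1A1 (-0.30, SE 0.18) and LUM (0.027, SE 0.077), at means of 8.22 and 11.17, did not pass either. COL1A2, PDGFRB and ACTA2 were within the background range. The summed signal of all 7 was 2905 to 3379 at number 1 and 3441 to 3795 at numbers 2 and 3. The leukocyte markers PTPRC and CD14 and the endothelial markers VWF and CDH5 were within the background range. The leukocyte marker CD3E was just above it, at means of 6.26 with POSTN and 6.12 in control cells, with a difference by number of -0.48 (SE 0.46). PECAM1, an endothelial marker, was well above background at a mean of 10.10 and was higher at number 1 (0.51). By condition, the hepatocyte sum was 47905 to 50731 with POSTN and 50407 to 55009 in control cells. The part of these features in the differences of the sterol and fatty acid genes was not tested. In RNA from whole cultures, a change in the cells that express a gene and a change in RNA per cell cannot be told apart.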

How the data were processed

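Per the labels and the study's methods, total RNA was amplified with the GeneChip 3′ IVT PLUS kit and hybridised to 1 array per sample, and the authors summarised probes by MAS 5.0, with R's affy package (versions not given in the sources used here). What the authors deposited are log2 values of MAS 5.0 signals, each array scaled so that the mean linear signal without the highest and lowest 2% is 500. MAS 5.0 subtracts mismatch signal, so dim probe sets vary widely, and detection calls were not used here. The number of arrays limits the precision, with a median standard error of 0.18 for POSTN against control above background.

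The tests used limma 3.58.1 in R 4.3.3 (lmFit, then eBayes with trend, so that the prior variance depends on the signal) on 54613 of 54675 probe sets, 62 Affymetrix controls being left out, with no filter on dim probe sets and Benjamini-Hochberg adjustment over all of them. POSTN was compared with control without a block, as in the unpaired test of the study's methods. Arrays numbered 1 were compared with the mean of numbers 2 and 3 with condition in the fit. Same-numbered arrays deviated together above background (correlations of 0.529, 0.235 and 0.239), and over all probe sets the correlations were 0.088, 0.034 and 0.025. Numbers 2 and 3 were hardly set apart, since above background POSTN 3 and control 2 correlated at 0.201 and POSTN 2 and control 3 at 0.150. On these values and not on the labels, a fit blocked on the number was run beside the unblocked one and is quoted where it differs.

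The members and lists were chosen with earlier results of these data known. Values on every array were printed for up to 12 members with the largest differences and an adjusted p under 0.05, and for the 5 largest rises and falls with POSTN above background. The value of ELOVL6 was added as the only lower call. Genes of the other lists were named at an adjusted p under 0.05, up to 6 per list. Alternatives were quantile normalization, centring on the array median, log2(signal + 50), a filter on background, leaving out probe sets ending in _x_at or _s_at, the mean over probe sets, a prior variance without trend, leaving out arrays, the replicate block, the methods' t-test and an F test over the numbers. The limma scripts were tested on simulated data.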

Additional observations from a re-analysis of the deposited data

How the results depend on the processing

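For POSTN against control, 0 probe sets and 0 members passed an adjusted p under 0.05 in limma under all alternatives run, including the replicate block (paired by number, lowest adjusted p 0.25) and the methods' t-test after adjustment. The members' median lay between -0.13 and 0.13 when 1 array was left out. At an unadjusted p under 0.05, INSIG1 passed without control replicate 1 (0.60), with the replicate block (0.23), and, beside TM7SF2 (0.87), without both arrays numbered 1 (0.35). The sign turned for ACLY with centring (-0.0034) and, with the mean over probe sets, for HMGCS1 (0.017) and ACACA (0.076). Leaving out 1 array gave ranges that crossed 0 for INSIG1 (-0.058 to 0.60), TM7SF2 (-0.042 to 0.78), PMVK (-0.078 to 0.28), MVK (-0.041 to 0.19), ACLY (-0.0062 to 0.11), SREBF1 (-0.33 to 0.056), HMGCS1 (-0.17 to 0.0056) and ACACA (-0.15 to 0.030). For number 1 against numbers 2 and 3, the 3389 probe sets and 18 higher members became 1917 and 7 once _x_at and _s_at probe sets were left out, where 13 of the 19 called members keep a probe set (IDI1 reversed to -0.084), and 0 and 0 with a prior variance without the trend. The F test gave 2230 probe sets and 13 members. Leaving out 1 array gave 1722 (without POSTN 1; 1982 without control 1) to 4496 probe sets and 8 to 19 higher members. The members' median of 0.39 was 0.31 without _x_at or _s_at probe sets, 0.32 among the POSTN arrays, 0.46 among the control arrays and 0.32 to 0.46 with 1 array left out. In the other settings 14 to 21 members were higher. ELOVL6 lost its call with log2(signal + 50), without POSTN 1 or POSTN 3, with the F test and without the trend. The causes were not tested, apart from the fewer probe sets or arrays of some settings. Centring moved the share of higher calls over all probe sets to 57.4%, against 51.8%.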
